A study of Mus musculus with 2 samples.

Results

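The 10 genes described here encode enzymes that break down serine, threonine, glycine, histidine and lysine: Sds, Sdsl, Tdh, Gcat, Gldc, Amt, Hal, Uroc1, Ftcd and Aass. They were found by matching the gene identifiers of both libraries to their symbols in the mouse GENCODE annotation, and all 10 had a row among 43346 mouse gene rows, of which 21474 were annotated as protein-coding. The genes were chosen by the amino acid they act on with the levels and the between-library ratios of these same libraries already known, so their presence in liver and their ratios are given as a description, with no test. Adult mice of the strain C57BL/6J gave the livers at an age of 8 weeks, and total RNA above 200 nucleotides in length was sequenced with added spike-in RNA in 2 libraries, numbered in the labels as biological replicates. The labels give no treatment, mutant allele or transgene for either library, and both form 1 group. The labels give each library its own biosample but the same donor identifier, and neither the sex nor the number of animals, so the spread between the libraries may be technical.

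Liver takes up amino acids from portal blood and burns or converts what is not needed for protein. Serine dehydratase turns serine straight into pyruvate, whereas the glycine cleavage system of mitochondria splits glycine and passes its methylene carbon to tetrahydrofolate. Histidine is opened through urocanate to formiminoglutamate, whose formimino group also ends on tetrahydrofolate, and lysine is broken down through saccharopine. Several of these genes are known to respond to dietary protein and fasting hormones in rodent liver.

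Levels are endogenous TPM, the deposited length-scaled TPM (transcript abundance) rescaled to the same total without the spike-ins, so that genes can be compared per length. The 10 genes together held 203.3 TPM in replicate 1 and 357.2 TPM in replicate 2, from 153829 and 170112 estimated counts. This was 0.167% of the TPM of all protein-coding genes in replicate 1 and 0.218% in replicate 2, with a mean of 0.193% ± 0.0366 (SD, n = 2). Of the 10 genes, 9 reached 1 TPM in both libraries, against 6664 of 21474 protein-coding genes (31.0%). The deposited posterior SD of the gene count, which grows with the reads a gene shares with others, was 0 for all 10 in both libraries.

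The libraries held 83816492 endogenous counts in replicate 1 and 71068181 in replicate 2. The small RNA of the signal recognition particle, 7SL, took 70.6% and 65.8% of TPM, and protein-coding genes took 12.2% and 16.4%. TPM values of most genes were lower in replicate 1, by a median of 0.50 on the log2 scale among 7702 genes with a mean of at least 1 TPM and 10 counts. Ratios between libraries are for this reason taken from counts scaled by TMM, as log2 of replicate 1 over replicate 2 after adding 0.5 CPM (counts scaled to library size), and a positive value means higher in replicate 1. Scaling by spike-ins or by deposited TPM moved the median ratio of all genes from 0.04 to -0.27 and -0.50, so ratios a little above 0 turn below 0 under them. The hepatocyte markers were all present, 10 of the 10 measured at 1 TPM in both libraries, led by Alb (serum albumin) at 6978 TPM in replicate 1 and 11030 TPM in replicate 2. Markers of other organs also moved between the libraries. The pancreatic acinar list summed to 842 CPM in replicate 1 and 130 in replicate 2, and 13 of its 14 genes passed the filter on low values and lay over 2-fold higher in replicate 1; Amy2a5, a pancreatic amylase, had 41.2 and 1.73 TPM. The adrenal cortex list summed to 20.6 and 100 CPM, with 1 of its 9 genes at 1 TPM in both libraries, Mrap at 6.28 and 9.32 TPM. Mrap hardly differed between the libraries and held 1546 of the 1641 counts of that list in replicate 1, against 1483 of 7512 in replicate 2. The median log2 ratio of the 9 adrenal genes was -3.48, and 2 of the 3 that passed the filter lay over 2-fold lower in replicate 1. The skeletal muscle list summed to 34.5 and 0.214 CPM, with 0 of its 10 genes at 1 TPM in both libraries. Kidney tubule markers summed to 0.792 and 2.06 CPM, with 2 of 8 at 0 counts in both libraries. Within the liver, the summed markers were 381 and 318 CPM for Kupffer cells, 393 and 394 for sinusoidal endothelium, 417 and 475 for stellate cells, 26.3 and 18.97 for cholangiocytes and 228 and 321 for erythroid cells. The part of these other cells and tissues in the results below was not tested.

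Sds, the enzyme that deaminates serine to pyruvate and ammonia and also acts on threonine, was the most abundant of the 10 genes in both libraries. Sds (ENSMUSG00000029597.10) lies on the plus strand of chromosome 5 from 120476526 to 120483932 (GRCm38, the mm10 build, as are all coordinates here). It stood at 44.7 TPM in replicate 1, with a deposited interval of 43.72 to 45.55, and at 96.9 TPM in replicate 2, with an interval of 95.04 to 98.27. The mean was 70.8 ± 36.9 TPM (SD, n = 2). Among the 21474 protein-coding genes this was rank 391 in replicate 1 and rank 242 in replicate 2, and the gene made up 22.0% and 27.1% of the summed TPM of the 10 genes. Its counts were 12296 and 17612, a log2 ratio of -0.61 after scaling, so replicate 1 was the lower library by counts as well as by TPM. A ratio at least that far from 0 was found in 7.69% of the 7702 genes.

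Sdsl, the serine dehydratase-like paralog next door, was far lower. It lies on the minus strand of chromosome 5 from 120458186 to 120472810, and 3715 bases separate it from Sds. Sdsl stood at 1.28 TPM in replicate 1 and 3.48 TPM in replicate 2, from 436 and 741 counts, with a mean of 2.38 ± 1.56 TPM (SD, n = 2). Sds was thus 35.1 times as high as Sdsl in replicate 1 and 27.8 times in replicate 2. The count ratio of Sdsl, -0.80 on the log2 scale, was the lowest of the 9 genes with counts. Both serine dehydratase genes were lower in replicate 1.

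Shmt1, Shmt2 and Srr, which also act on serine, were below Sds in both libraries. Shmt1, the cytosolic hydroxymethyltransferase that interconverts serine and glycine, had 23.4 TPM in replicate 1 and 24.6 TPM in replicate 2, so Sds was 1.91 and 3.94 times as high. Shmt2, the mitochondrial form, had 11.7 and 19.5 TPM, and Srr, which makes D-serine, had 3.49 and 5.92 TPM. Of 6 listed genes for serine and glycine synthesis and exchange, these 3 reached 1 TPM in both libraries. Their median log2 ratio was -0.19, with 2 lower and 1 higher in replicate 1 and none over 2-fold apart. The serine synthesis genes stood at the bottom of this list of 6 by mean level. Phgdh, the first enzyme of serine synthesis from glycolysis, had 54 counts in replicate 1 and 159 in replicate 2, or 0.1004 and 0.4821 TPM, and was named after its values were seen.

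**Figure D1:**
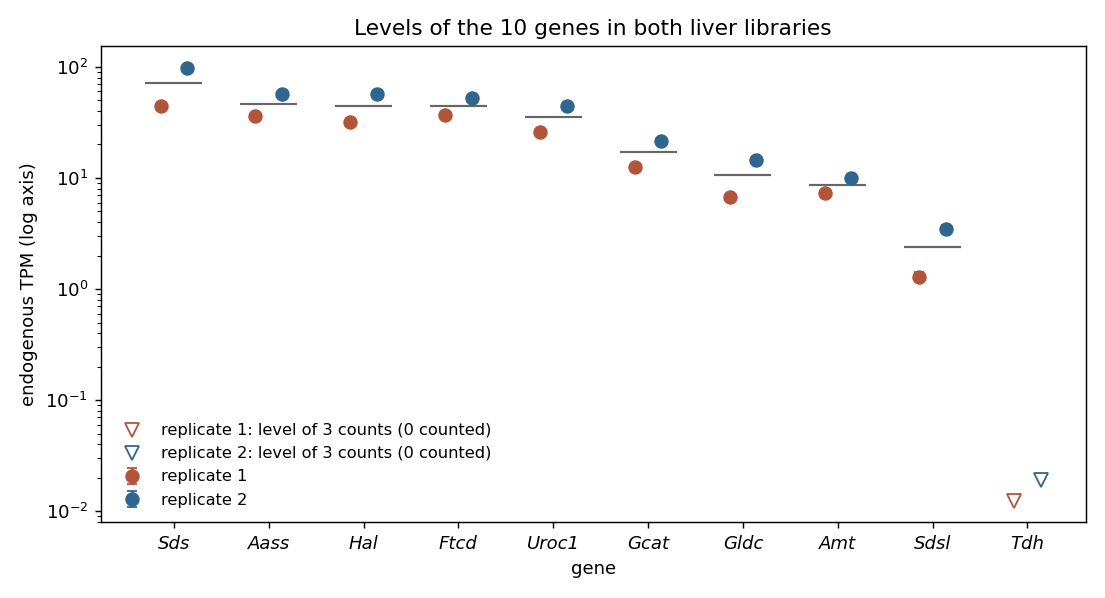
Endogenous TPM (log axis) of each of the 10 genes in replicate 1 (left point) and replicate 2 (right point); bars are the deposited interval of each TPM, mostly smaller than the point, and grey lines the mean of both libraries. Sds is highest at 44.7 and 96.9 TPM, Sdsl lowest among the 9 genes with counts, and the open triangles for Tdh mark the level that 3 counts would give, 0.0125 and 0.0193 TPM, since 0 were counted.

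Threonine can be turned into glycine by 2 mitochondrial enzymes acting in turn, threonine dehydrogenase (Tdh) and 2-amino-3-ketobutyrate coenzyme A ligase (Gcat). Only the second was detected. Tdh (ENSMUSG00000021953.10, chromosome 14, 63492347 to 63509092, minus strand) had 0 counts in replicate 1 and 0 in replicate 2, for each of its 6 annotated transcripts. At these depths a count of 0 allows up to 3 counts, which would be 0.0125 TPM in replicate 1 and 0.0193 TPM in replicate 2. Gcat (ENSMUSG00000006378.9, chromosome 15, 79030874 to 79038353, plus strand) had 12.6 TPM in replicate 1 and 21.7 TPM in replicate 2, with a mean of 17.1 ± 6.38 TPM (SD, n = 2). That span is from the later annotation GENCODE M21, while the level also includes the transcript Gcat-203, whose last exon lies beyond the span. The counts of Gcat, with Gcat-203 included, were 7830 and 7965, a log2 ratio of -0.11. A ratio that far from 0 or farther was found in 70.5% of genes, so the gene-level counts of the libraries lay close together.

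The transcripts of Gcat did not lie close together. Gcat-201 had 69.15% of the gene's TPM in replicate 1 and 44.21% in replicate 2, and Gcat-203 had 30.85% and 55.79%. The leading transcript by TPM share therefore differed between the libraries, while by counts Gcat-201 led in both, with 75.7% in replicate 1 and 52.3% in replicate 2. Gcat-203 had 1905 counts in replicate 1 and 3796 in replicate 2 (log2 ratio -1.07), and Gcat-201 had 5925 and 4169 (0.42). The deposited posterior SD of these split counts, 159 in replicate 1 and 119 in replicate 2, was small beside the differences, but it covers the division of reads only and not the spread between samples. Among 1706 protein-coding genes with several transcripts and at least 5 TPM in both libraries, the leading transcript by TPM share differed in 104 (6.10%), and the largest shift of a share had a median of 3.83 percentage points. Gcat shifted by 24.9 points, which 0.997% of those genes reached. Of the 7 genes described here that fall in that class, Gcat was the single one whose leader differed.

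The 2 Gcat transcripts are shown because their last exons differ, so that reads there can tell them apart. Of their 9 exons, 8 end at the same bases in both, and the transcripts part after base 79036874. Gcat-201 goes on to a last exon at 79037143 to 79038353, of which 149 bases are coding, and Gcat-203 skips to a last exon at 79041928 to 79042531, 5053 bases after the shared exon, of which 47 are coding. The coding sequence has 1248 bases and 416 codons in Gcat-201 and 1146 bases and 382 codons in Gcat-203. The last exon of Gcat-203 overlaps the first exon of Galr3, a galanin receptor gene, by 363 bases, and no count was assigned to the Galr3 transcript, which the deposited table lists within the Gcat gene. The later GENCODE M21 gives Gcat-203 a gene identifier of its own (ENSMUSG00000116378), while the M4 models of the deposited table sum it into Gcat. Lower case marks the end of the shared exon and capitals the coding bases of the last exon with the stop codon, at chr15:79037143-79037294 for Gcat-201 and chr15:79041928-79041977 for Gcat-203.
Gcat-201: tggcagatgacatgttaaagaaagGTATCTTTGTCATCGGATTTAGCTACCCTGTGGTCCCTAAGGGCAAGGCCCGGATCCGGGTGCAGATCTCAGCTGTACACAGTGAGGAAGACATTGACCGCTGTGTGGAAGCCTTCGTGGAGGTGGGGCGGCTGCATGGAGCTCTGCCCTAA
Gcat-203: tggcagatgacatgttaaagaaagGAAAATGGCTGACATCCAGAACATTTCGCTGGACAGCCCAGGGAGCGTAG

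Of the glycine cleavage system, the 2 genes Gldc and Amt stood in a different order in each library. Gldc, the P protein that decarboxylates glycine (ENSMUSG00000024827.9, chromosome 19, 30098447 to 30175429, minus strand), had 6.71 TPM in replicate 1, with an interval of 6.54 to 6.84, and 14.35 TPM in replicate 2, with an interval of 14.04 to 14.59. Amt, the T protein that hands the methylene carbon to tetrahydrofolate (ENSMUSG00000032607.8, chromosome 9, 108296853 to 108302302, plus strand), had 7.26 TPM in replicate 1 (7.05 to 7.52) and 9.89 TPM in replicate 2 (9.54 to 10.3). Gldc was thus 0.924 times Amt in replicate 1 and 1.45 times Amt in replicate 2, and the intervals did not overlap within either library. By scaled counts Gldc was lower in replicate 1, with 7483 and 10263 counts and a log2 ratio of -0.54. Amt was slightly higher there, with 4173 and 3521 counts and a ratio of 0.15. The means were 10.5 ± 5.41 TPM for Gldc and 8.58 ± 1.86 TPM for Amt (SD, n = 2).

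The carrier and dehydrogenase subunits lay above both. Gcsh, the H protein that carries the glycine remnant on lipoate, had 17.6 TPM in replicate 1 and 21.9 TPM in replicate 2, which was 2.62 and 1.53 times Gldc. Dld, the L protein that the system shares with the pyruvate and oxoglutarate dehydrogenase complexes, had 14.4 and 15.8 TPM. Lias, which makes the lipoate, had 3.51 and 4.14 TPM. Of the 5 listed partners, 4 reached 1 TPM in both libraries, with a median log2 ratio of 0.28, and 3 of these were higher and 1 lower in replicate 1. Gldc therefore had a ratio below 0 while Gcsh (0.22), Dld (0.41) and Lias (0.34) had ratios above 0 under the same scaling, although by TPM itself each of these was lower in replicate 1. Among 15 measured genes for other glycine, sarcosine and glyoxylate reactions, 13 reached 1 TPM in both libraries, with a median ratio of 0.04 and none over 2-fold apart. Gnmt, which methylates glycine to sarcosine, led them at 379 TPM in replicate 1 and 637 TPM in replicate 2. Agxt, which makes glycine from glyoxylate and can also use serine, had 43.0 and 88.3 TPM, against 44.7 and 96.9 TPM for Sds, and Sardh, which returns sarcosine to glycine, 41.8 and 63.6 TPM.

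The histidine genes Hal, Uroc1 and Ftcd formed a compact group of high levels and together made up 46.7% of the summed TPM of the 10 genes in replicate 1 and 43.2% in replicate 2. Hal, histidine ammonia-lyase, which takes the amino group off histidine to leave urocanate (ENSMUSG00000020017.10, chromosome 10, 93488768 to 93519304, plus strand), had 32.1 TPM in replicate 1 (31.2 to 33.0) and 57.3 TPM in replicate 2 (55.8 to 58.9). Uroc1, urocanate hydratase, the next enzyme (ENSMUSG00000034456.11, chromosome 6, 90333284 to 90364551, plus strand), had 26.1 TPM in replicate 1 (25.8 to 26.4) and 44.4 TPM in replicate 2 (43.8 to 44.8). Ftcd, the formimidoyltransferase-cyclodeaminase that ends the route (ENSMUSG00000001155.9, chromosome 10, 76575648 to 76590338, plus strand), had 36.6 TPM in replicate 1 (36.1 to 37.2) and 52.4 TPM in replicate 2. Hal was 1.23 times Uroc1 in replicate 1 and 1.29 times in replicate 2, so this pair kept its order. Hal and Ftcd did not, with Hal at 0.878 times Ftcd in replicate 1 and 1.09 times in replicate 2.

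Count ratios differed along the route. Hal had 34121 counts in replicate 1 and 41554 in replicate 2 (log2 ratio -0.37), Uroc1 had 26023 and 28329 (-0.21), and Ftcd had 22314 and 20325 (0.05). Hal and Uroc1 were lower in replicate 1, and Ftcd lay beside the median of all genes, 0.04. Amdhd1, the imidazolonepropionase between Uroc1 and Ftcd, had 20.2 TPM in replicate 1 and 38.3 TPM in replicate 2 with a ratio of -0.37, and on the scale of whole genes was the lowest of the 4 genes of the route in both libraries. Of 6 other listed histidine genes, 3 reached 1 TPM in both libraries, with a median ratio of 0.21. Besides Amdhd1 these were Hnmt, which methylates histamine, at 5.10 and 4.16 TPM with a ratio of 0.80, and Cndp2, a dipeptidase, at 2.88 and 3.64 TPM. Hdc, which makes histamine from histidine, had 0.191 TPM in replicate 1 and 0.161 TPM in replicate 2 and was named after its values were seen.

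Part of the TPM of Hal and Ftcd came from transcripts annotated as not coding for protein. In Hal, the coding transcript Hal-202 had 60.10% of the gene's TPM in replicate 1 and 65.97% in replicate 2, and the processed transcript Hal-204 had 32.57% and 25.73%. Hal-204 is 851 bases long against 5319 for Hal-202, so it took this share from 6.19% and 4.64% of the gene's counts. Of its 851 bases, 799 are also in Hal-202. In Ftcd, the retained-intron transcript Ftcd-202 had 21.65% of TPM in replicate 1 and 19.94% in replicate 2, from 30.2% and 28.1% of the counts. Over 2288 protein-coding genes with at least 5 TPM in both libraries, retained-intron transcripts held a mean of 5.32% of TPM in replicate 1 and 5.43% in replicate 2, and 8.26% and 9.27% of these genes held at least as much as Ftcd. In Sds, the retained-intron transcript Sds-203 held 11.99% of TPM in replicate 1 and 9.66% in replicate 2. All noncoding transcripts held 39.9% and 34.0% of TPM in Hal, against a mean of 10.6% and 10.8% over the 2288 genes.

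With protein-coding transcripts alone, a choice made after the data were seen, Hal had 19.3 TPM in replicate 1 and 37.8 TPM in replicate 2. Ftcd then had 28.7 and 42.0 TPM, and Uroc1, whose transcripts all code for protein, stayed at 26.1 and 44.4 TPM. Hal was the lowest of these 3 in both libraries on that scale, although it was above Uroc1 in both on the scale of whole genes. The order of the histidine genes by level therefore depended on which transcripts were summed.

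Bases that set Ftcd-202 apart from Ftcd-201, and Hal-204 apart from Hal-202, are shown. Reads over them were not examined, and the shares above are the deposited estimates. The noncoding part of Hal also holds Hal-203 (3.78% of TPM in replicate 1 and 6.64% in replicate 2) and Hal-201 (3.55% and 1.67%). Those 2 transcripts were not compared at these bases. Ftcd-202 keeps intron 8 of 13, the 297 bases at chr10:76583873-76584169, leaves out exon 4 (89 bases, 76579783 to 76579871) and ends 777 bases later than Ftcd-201. Hal-204 starts with 52 bases of its own at chr10:93501125-93501176, within intron 14 of Hal-202. In the Ftcd line, capitals mark the first and last base pair of the intron, and in the Hal line they mark the exon that Hal-202 lacks, followed by the first 20 bases of the next, shared exon.
Ftcd-202 kept intron: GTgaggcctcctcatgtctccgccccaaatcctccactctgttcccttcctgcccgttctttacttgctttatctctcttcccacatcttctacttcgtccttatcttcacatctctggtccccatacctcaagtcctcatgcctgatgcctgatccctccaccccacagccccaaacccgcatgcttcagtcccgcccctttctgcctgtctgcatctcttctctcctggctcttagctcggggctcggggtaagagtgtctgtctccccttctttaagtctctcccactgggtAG
Hal-204 first exon: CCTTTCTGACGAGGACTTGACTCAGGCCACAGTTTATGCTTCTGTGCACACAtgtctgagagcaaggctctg

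**Figure D2:**
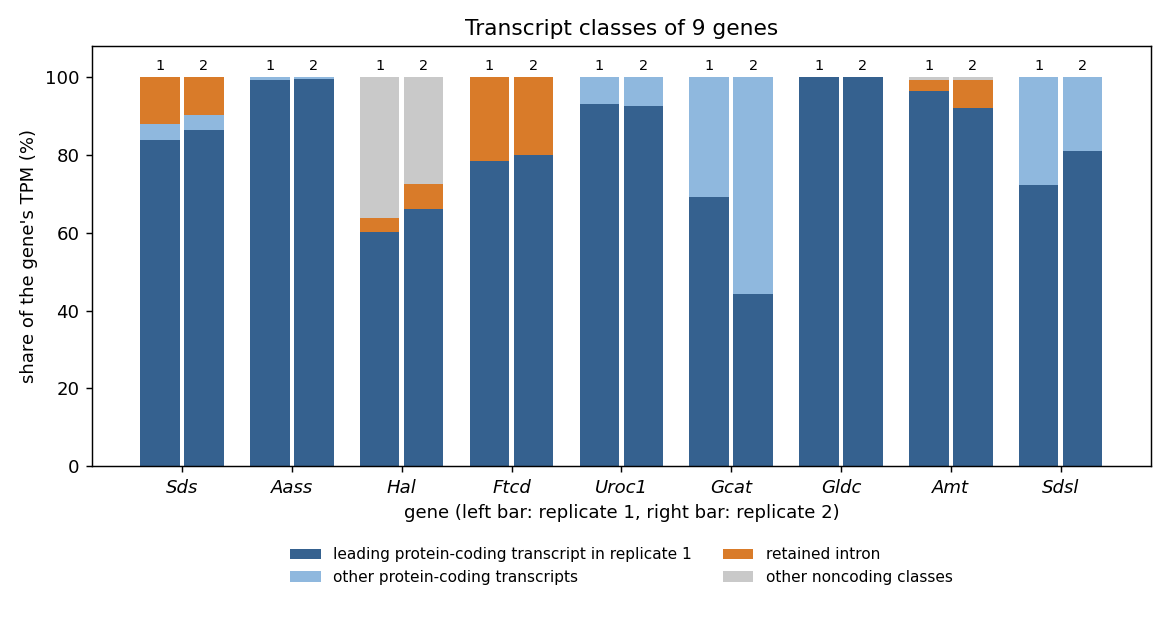
Share of each gene's TPM (%) held by the leading protein-coding transcript of replicate 1, by other protein-coding transcripts, by retained-intron transcripts and by other noncoding classes, for the 9 genes with counts (left bar replicate 1, right bar replicate 2). The leading share of Gcat is 69.15% in replicate 1 and 44.21% in replicate 2, and Hal and Ftcd have the largest noncoding parts.

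Aass, the bifunctional enzyme that opens lysine breakdown by forming and then splitting saccharopine, was among the higher of the 10 genes. It lies on the minus strand of chromosome 6 from 23072173 to 23132986 (ENSMUSG00000029695.9). Aass had 35.8 TPM in replicate 1 (35.4 to 36.2) and 56.8 TPM in replicate 2 (56.2 to 57.4), with a mean of 46.3 ± 14.8 TPM (SD, n = 2). Its counts, 39153 in replicate 1 and 39802 in replicate 2, gave a log2 ratio of -0.11, and 70.6% of genes had a ratio at least as far from 0. Aldh7a1, the dehydrogenase that oxidises the semialdehyde Aass releases, stood almost level with it at 34.6 and 55.1 TPM, so that Aass was 1.04 times Aldh7a1 in replicate 1 and 1.03 times in replicate 2. Gcdh, glutaryl-CoA dehydrogenase further down, was higher at 61.1 and 69.3 TPM, and Etfdh, which passes its electrons to the respiratory chain, had 26.2 and 29.9 TPM. Of 9 other listed lysine genes, 8 reached 1 TPM in both libraries, with a median log2 ratio of 0.11, 6 higher and 2 lower in replicate 1 and none over 2-fold apart.

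**Figure D3:**
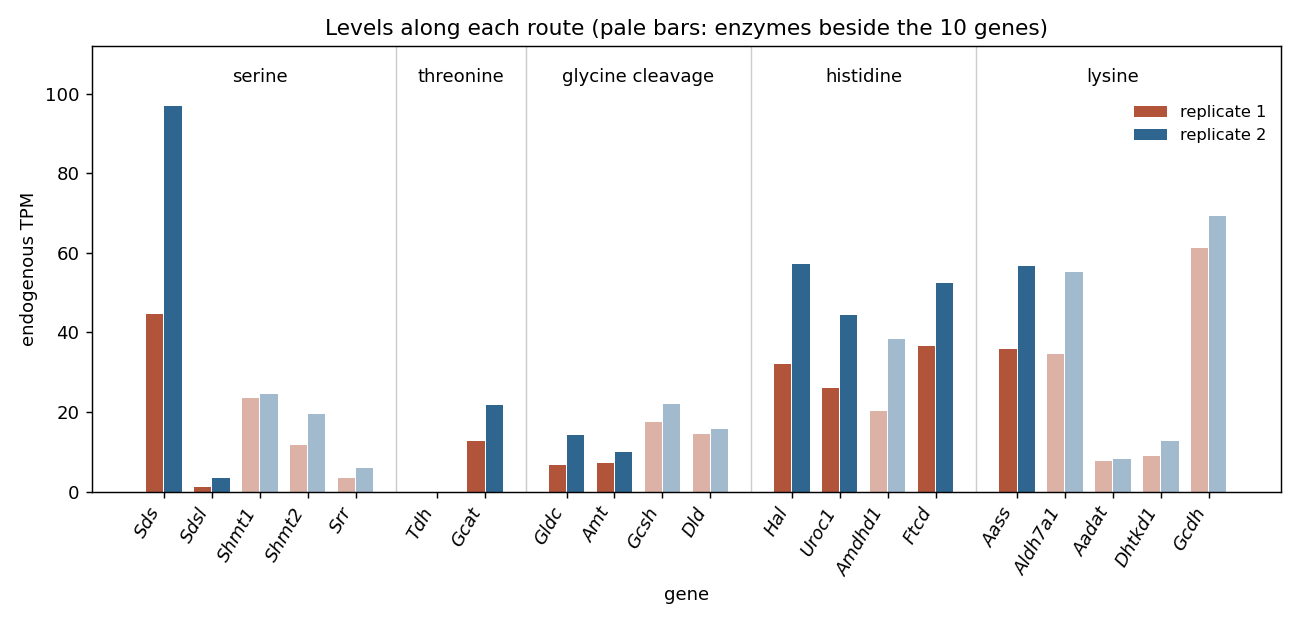
Endogenous TPM along each route in replicate 1 (left bar) and replicate 2 (right bar); full colour marks the 10 genes and pale bars other enzymes of the same route. Sds stands above Shmt1, Shmt2 and Srr, Gldc and Amt below Gcsh and Dld, and Aass level with Aldh7a1, in both libraries.

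On the scale of whole genes, the order of the 10 genes by level was partly the same in both libraries. Sds stood at the top, Uroc1 next above Gcat in the middle, and Sdsl above Tdh at the bottom of each. In replicate 1 Sds was followed by Ftcd, Aass and Hal, and in replicate 2 by Hal, Aass and Ftcd. These neighbours were not all separable, since the intervals of Ftcd and Aass overlapped in replicate 1 and those of Hal and Aass in replicate 2. Gldc and Amt also changed places. Means of neighbours in the middle of the order differed by less than the SD over the libraries, at 46.3 ± 14.8 TPM for Aass, 44.7 ± 17.8 for Hal, 44.5 ± 11.2 for Ftcd and 35.3 ± 12.9 for Uroc1 (SD, n = 2 each). That SD includes the lower TPM of most genes in replicate 1, so it does not measure how far genes differ within a library. On this scale Uroc1 lay below Aass, Hal and Ftcd in both libraries, and its interval overlapped none of theirs. With protein-coding transcripts alone it lay below Aass in both but above Hal in both, and above Ftcd in replicate 2.

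By count ratio, 0 of the 9 genes that passed the filter on low values lay over 2-fold apart between the libraries, where 2.36% of all 7702 genes did. The ratio was below 0, that is lower in replicate 1, for 7 of the 9, where this held for 44.5% of all genes. The median of the 9 was -0.21 against 0.04 for all genes, whose central 95% ran from -0.66 to 0.80. Sdsl at -0.80 lay outside that range and Sds at -0.61 and Gldc at -0.54 near its lower end. Amt and Ftcd had ratios above 0, but under scaling by the spike-ins they turned to -0.16 and -0.27, and by deposited TPM to -0.44 and -0.52. Relative to the median of all genes under those scalings Amt stayed above by 0.11 and 0.06, and Ftcd lay at 0.00 and -0.01.

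Base composition moved with the ratios. Over 10 equal groups of genes ordered by transcript GC content, the median log2 ratio was 0.24 in the group with the lowest GC and -0.16 in the group with the highest. Sdsl (61.8% GC), Sds (57.1%) and Gcat (57.0%) were GC-rich, and Aass had the lowest content of the 9 at 45.5%. After the median of each gene's own GC group was subtracted, Sdsl stood at -0.64, Gldc at -0.55, Sds at -0.48 and Hal at -0.41, and the median of the 9 was -0.25. Gcat then turned to 0.01, with a GC content taken from the M21 gene, which leaves out Gcat-203. Aass moved away from 0 to -0.25, Amt to 0.22 and Ftcd to 0.11, and Gldc and Hal also lay farther from 0 than before this correction.

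**Figure D4:**
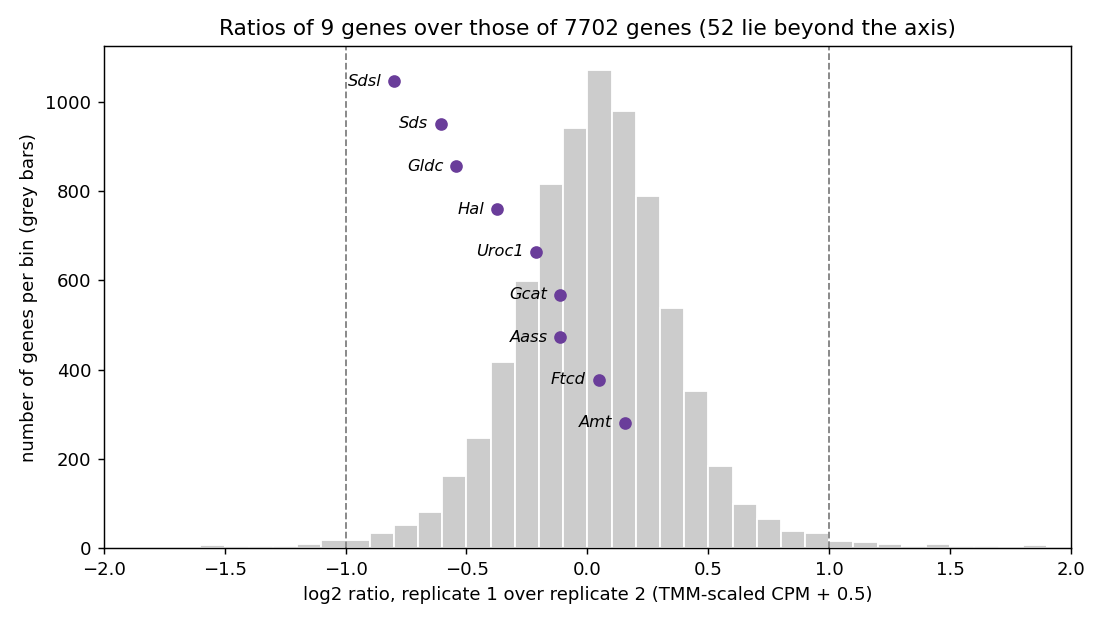
Log2 ratio of TMM-scaled CPM plus 0.5, replicate 1 over replicate 2, for 7702 genes (grey bars, number of genes per bin) and for the 9 genes with counts (points; their height only separates the names). Dashed lines mark 2-fold, which no point passes, and 7 of 9 points lie below 0.

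Liver lobules divide labour along the blood path, and serine, glycine and histidine breakdown is known as a periportal function. A list of 16 periportal genes, none of them among the 10, had a median log2 ratio of 0.00, with 8 lower and 8 higher in replicate 1. A list of pericentral genes, of which 12 passed the filter, had a median of 0.74, with 11 higher and 1 lower in replicate 1 and 2 over 2-fold higher. The 9 catabolic genes had 7 lower and 2 higher. In bulk tissue fewer cells of a type and less RNA per cell cannot be told apart, and how far the makeup of the samples moved the 10 genes was not tested.

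Beside 3 other lists of amino acid enzymes, the 10 genes had the lowest summed level and, by the median, stood above the tryptophan list only. The median of the 10 was 19.4 TPM in replicate 1 and 33.0 TPM in replicate 2, and their sum of 203.3 and 357.2 TPM stood against 408.3 and 570.7 TPM for the next list, the tryptophan and kynurenine genes. For 8 genes of phenylalanine and tyrosine breakdown it was 89.1 and 120 TPM, led by Hpd at 400 and 544 TPM, with a median ratio of 0.03. For 8 tryptophan and kynurenine genes it was 13.6 and 21.7 TPM, led by Tdo2, with a median ratio of -0.06 and 1 gene over 2-fold lower in replicate 1. For 9 methionine and transsulfuration genes it was 123 and 170 TPM, led by Bhmt at 485 and 325 TPM, with a median ratio of 0.04 among the 8 that passed the filter, of which 1 was over 2-fold higher and 1 over 2-fold lower in replicate 1. Among folate enzymes, which take up the carbon units that Gldc, Amt and Ftcd release, 6 of 13 reached 1 TPM in both libraries. Aldh1l1, which oxidises formyltetrahydrofolate, led them at 134 TPM in replicate 1 and 159 TPM in replicate 2, and the 7 that passed the filter had a median ratio of 0.13.

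Promoters of 7 of the 10 genes were found in the RefSeq table (GRCm38.p6), and Sds, Sdsl and Tdh were not among them. The 250 bases before the RefSeq start were searched on both strands for 5 motifs. These were the TATA box as TATAAA, the CCAAT box by its name and the GC box as GGGCGG. The others were the core of the cAMP response element as TGACGT and an HNF1 site in part as GTTAAT. The RefSeq start lies 52 bases from the GENCODE start given above for Amt, 12 for Gldc and 5 for Uroc1. For Gcat, Hal, Ftcd and Aass both starts are the same. No matches overlapped in these 7 promoters. TATAAA was found in Hal and Ftcd, and in 12.4% of 32851 promoters of the same length. CCAAT was found in Gldc, Amt, Hal, Uroc1 and Aass (33.8% of all), GGGCGG in Gcat, Gldc and Amt (32.7%), TGACGT in Aass (6.47%) and GTTAAT in Ftcd (6.43%). In Ftcd, GTTAAT lies 56 to 51 bases and TATAAA 29 to 24 bases before the start, and in Hal TATAAA lies on the opposite strand 28 to 23 bases before it. The promoters of the 3 histidine genes are shown because these genes act in the same route, with matches in capitals. They are Hal at chr10:93488518-93488767, Uroc1 at chr6:90333039-90333288 and Ftcd at chr10:76575398-76575647, all on the plus strand. A match is a run of letters and not a measured binding site.
Hal promoter: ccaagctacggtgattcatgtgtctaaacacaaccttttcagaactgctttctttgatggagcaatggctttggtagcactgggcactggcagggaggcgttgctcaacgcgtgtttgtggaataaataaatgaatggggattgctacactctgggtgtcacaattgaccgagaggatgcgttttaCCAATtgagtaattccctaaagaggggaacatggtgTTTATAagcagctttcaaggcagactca
Uroc1 promoter: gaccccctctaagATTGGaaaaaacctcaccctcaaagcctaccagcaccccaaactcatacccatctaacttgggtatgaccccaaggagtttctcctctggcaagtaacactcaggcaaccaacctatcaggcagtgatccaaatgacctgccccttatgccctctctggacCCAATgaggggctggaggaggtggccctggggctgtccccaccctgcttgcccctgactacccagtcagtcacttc
Ftcd promoter: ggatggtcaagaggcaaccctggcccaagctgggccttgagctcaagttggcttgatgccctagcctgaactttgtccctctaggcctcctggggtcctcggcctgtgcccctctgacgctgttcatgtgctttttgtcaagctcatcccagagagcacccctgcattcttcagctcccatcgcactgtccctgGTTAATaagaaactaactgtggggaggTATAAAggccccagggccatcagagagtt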

How the data were processed

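Total RNA was measured in 2 liver libraries of 1 group. The authors quantified each library separately against mm10 and GENCODE M4, per the notes deposited with each library. Aligner and quantifier were not given in the sources used here. Deposited expected counts are estimated numbers of fragments, which need not be whole and were rounded for edgeR. The deposited TPM values are scaled to length over all features, spike-ins included, and were rescaled without the 97 spike-in and control rows. The deposited FPKM values, scaled to length and library size, served as an alternative. The deposited transcript share in its gene is a percent of TPM. The deposited signal columns bound each TPM; the confidence level of that interval is not known, and it covers read sampling and assignment only. The deposited posterior SD of each count measures how uncertain the division of shared reads is.

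Names, classes and coordinates came from GENCODE M21, which held 42462 of 43346 gene identifiers. TMM factors (edgeR 4.0.16, R 4.3.3) were 0.950 and 1.05, and the added 0.5 CPM equal 39.8 counts in replicate 1 and 37.4 in replicate 2, so ratios of low genes are understated. Genes entered with a mean of 1 TPM and 10 counts. With 1 group there is no test and no p-value. Alternatives were DESeq2 1.42.0 size factors, spike-in scaling, TPM ratios, other pseudocounts, no filter, a GC correction, other units and single replicates. Python 3.11.15, numpy 2.4.6, pandas 2.3.3 and matplotlib 3.10.9 did the rest. The ratio calculation was checked on simulated counts scaled by their totals, so TMM scaling was not part of that check.

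The 22 gene lists, which include the list of the 10 genes, were chosen with earlier results of these data known. Named are the 10 genes, the 3 highest of each pathway list and any of its genes over 2-fold apart, and the highest of each comparison, marker and zonation list, of which examples are given.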

Additional observations from a re-analysis of the deposited data

How the results depend on the processing

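Of the 10 genes, 9 were detected under each threshold tried (0.1 TPM, 10 counts, 1 TPM over protein-coding genes) and in each library alone. The summed share of the 10 genes, 0.193% of protein-coding TPM, was 0.167% to 0.218% in single libraries. It was 0.0280% of endogenous TPM, by construction of the larger denominator. Of protein-coding counts, which are not scaled to length, it was 0.290%. The count over 2-fold apart, 0, became 1 under spike-in scaling (Sdsl, -1.10) and 3 by deposited TPM (Sds -1.11, Sdsl -1.42, Gldc -1.09), and the median ratio, -0.21, became -0.53 and -0.77. Over all genes, 3.30% and 8.62% lay over 2-fold apart under these scalings. Relative to the median of all genes, the median of the 9 was -0.25 as reported, -0.26 with spike-ins, -0.27 by TPM and -0.25 after the GC correction. DESeq2 size factors (-0.20), smaller pseudocounts (-0.21) and no filter, with Tdh counted in (-0.16), left the count at 0. No paired analysis was possible because both libraries belong to the same group. With 2 libraries, no spread within the group can be set against these ratios, and Sdsl rests on 436 and 741 counts.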
